A study of Mus musculus with 2 samples.

Results

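The 44 genes described here carry out or time DNA replication and mitosis. They comprise 18 S phase genes, 21 G2/M genes and the 5 cyclins of the D and E types, were chosen by symbol, and were all found among the 32285 genes of the matrix. The data are 1 single-cell RNA sequencing library of cells from colonies that formed within 14 days in methylcellulose, which is semi-solid, after plating of aortic cells from 2 male C57BL/6J mice aged 12 weeks. Colonies picked as CFU-M (colony-forming unit macrophage) were dispersed, viable cells were sorted with the dye DAPI, and cells were marked with lipid-anchored MULTI-seq tag oligonucleotides and pooled. No genotype, treatment or time course enters the comparison: all cells share the strain, age and culture, and the 2 mice cannot be told apart. The comparison is therefore between cell classes within the library, and it has no replicate, so values carry counting intervals and no p-value.

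Of 34813 barcodes, 30755 cells were kept, with a median of 12728 UMIs (unique molecular identifiers, each counting 1 captured transcript). Clusters were named from marker genes. Mast cell-like cells (mast-like below) were 61.6% (18935 cells, median 12329 UMIs), fibroblast-like cells 17.1% (5245 cells, median 31769 UMIs) and macrophage-like cells 9.0% (2769 cells, median 8837 UMIs), although the labels call the colonies macrophage progenitors. The macrophage receptor gene Csf1r stood at 477 CPM (UMIs of a gene per 1000000 gene UMIs) in macrophage-like cells and at 2.20 and 9.53 CPM in mast-like and fibroblast-like cells, and the collagen gene Col1a1 at 2805 CPM in fibroblast-like cells against 43.4 and 63.2 CPM in mast-like and macrophage-like cells. Of 6 endothelial markers, Cdh5 was at most 1.42 CPM and Cldn5, Kdr, Tek and Emcn at most 7.35 CPM in any class, while Flt1 stood at 261 CPM in fibroblast-like cells and at 2.84 and 7.12 CPM in mast-like and macrophage-like cells. A further 3283 cells passed all 7 mast cell markers but were led by haemoglobin genes (Hbb-bs, Hba-a2) and stayed unnamed. The tag named Cafum was the most common in mast-like cells (70.9%), Matrigel in fibroblast-like cells (48.2%) and Macrophages in macrophage-like cells (70.4%), and 26.6% of macrophage-like cells carried more than 1 tag. Xist, which is transcribed from the inactive X chromosome of females, stood at 384, 354 and 703 CPM in mast-like, macrophage-like and fibroblast-like cells, beside the Y-linked Ddx3y at 19.1, 51.3 and 31.0 CPM, while the labels give males alone.

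All 7 mast cell markers, among them the chymase gene Cma1, were also counted in the other classes. Their CPM in macrophage-like cells was 0.326 to 0.398 of that in mast-like cells, and in fibroblast-like cells 0.133 to 0.154. These ranges serve below as a yardstick: a gene whose ratio lies inside or under the range cannot be told apart from mast cell RNA counted in the other class. In macrophage-like cells that carried the Macrophages tag alone (1949 cells) the range was 0.157 to 0.212, and in fibroblast-like cells with the Matrigel tag alone (2528 cells) it was 0.0560 to 0.0762.

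A dividing cell copies its DNA in S phase and divides after the G2 gap in M phase. D-type cyclins, induced by growth signals, and E-type cyclins activate kinases that inactivate the retinoblastoma protein and free E2F factors, which raise replication genes such as the Mcm helicase subunits. Later, B-Myb, FoxM1 and the MuvB complex raise mitotic genes through a promoter element named CHR, the cell cycle genes homology region. Connective tissue mast cells and tissue macrophages are long-lived cells that can divide after maturation, and adventitial fibroblasts divide readily in culture.

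Promoters of 2 S phase and 4 G2/M genes are shown because genes of the same phase are known to share these elements. Within each list the state of the highest mean differed between genes, as given below. The promoter table (RefSeq, GRCm38.p6, 250 bases before to 50 after each start) held 36 of the 44 genes. The CHR words TTTGAA and TTCGAA, on either strand, occurred in 14 of the 18 promoters of 18 G2/M genes (77.8%), 3 of the 18 promoters of 16 S phase genes (16.7%) and 19.2% of all 32851 promoters. The E2F words TTTCCCGC, TTTCGCGC, TTTGCCGC and TTTGGCGC, on either strand, occurred in 7 of 18 S phase promoters (38.9%), which belong to Cdc6, Mcm3, Mcm5, Mcm6, Mcm7, Pclaf and Uhrf1. In the G2/M list 1 of 18 promoters held an E2F word, that of Cdk1, against 2.26% of all promoters. The box CCAAT did not separate the lists, with 14 of 18 S phase promoters, 16 of 18 G2/M promoters and 37.4% of all promoters. A word match is a description of the sequence and not a measured binding site. The lines below run from 150 bases before to 30 bases after the start, 5′ to 3′ on the gene's strand, and capitals mark the CHR and E2F words. Mcm6 (chr1:128359676-128359855, minus strand) and Pclaf (chr9:65890173-65890352, plus strand) are S phase genes with E2F words. Cdk1 (chr10:69352883-69353062, minus strand) holds an E2F word and 2 CHR words. Cdc20 (chr4:118437314-118437493, minus strand), Ube2c (chr2:164769779-164769958, plus strand) and Cenpf (chr1:189688057-189688236, minus strand) are G2/M genes with a CHR word near the start.
Mcm6: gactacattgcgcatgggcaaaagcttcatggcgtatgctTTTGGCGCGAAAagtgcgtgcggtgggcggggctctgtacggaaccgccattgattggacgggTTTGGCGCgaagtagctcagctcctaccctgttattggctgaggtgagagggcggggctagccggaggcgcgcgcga
Pclaf: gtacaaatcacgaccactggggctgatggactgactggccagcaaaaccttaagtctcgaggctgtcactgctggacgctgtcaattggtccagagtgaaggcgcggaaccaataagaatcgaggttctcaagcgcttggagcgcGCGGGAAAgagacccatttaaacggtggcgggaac
Cdk1: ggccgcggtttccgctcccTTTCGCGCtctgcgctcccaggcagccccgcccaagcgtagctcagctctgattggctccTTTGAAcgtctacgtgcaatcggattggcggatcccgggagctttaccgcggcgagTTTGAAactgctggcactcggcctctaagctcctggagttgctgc
Cdc20: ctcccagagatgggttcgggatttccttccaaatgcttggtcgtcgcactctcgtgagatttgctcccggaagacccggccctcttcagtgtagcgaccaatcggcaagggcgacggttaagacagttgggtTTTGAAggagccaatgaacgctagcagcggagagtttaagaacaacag
Ube2c: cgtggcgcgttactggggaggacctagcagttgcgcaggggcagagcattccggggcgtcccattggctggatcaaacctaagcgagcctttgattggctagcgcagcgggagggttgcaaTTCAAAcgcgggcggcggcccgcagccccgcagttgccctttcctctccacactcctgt
Cenpf: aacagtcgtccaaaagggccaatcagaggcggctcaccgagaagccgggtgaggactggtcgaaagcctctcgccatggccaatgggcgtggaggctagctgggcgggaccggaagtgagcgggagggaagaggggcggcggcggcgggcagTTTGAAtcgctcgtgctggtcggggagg

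Mast-like cells had the highest CPM of all 39 S phase and G2/M genes. Summed over the list, S phase genes stood at 826 CPM in mast-like, 438 CPM in the macrophage-like and 394 CPM in the fibroblast-like class. The G2/M sum was 1191, 450 and 504 CPM in the same order. The deeper fibroblast-like cells nevertheless held as many transcripts per cell, with 13.0 S phase and 16.6 G2/M UMIs against 11.9 and 17.1 in mast-like cells and 4.77 and 4.90 in macrophage-like cells. By UMIs per cell, fibroblast-like cells were highest for 12 of 18 S phase and 12 of 21 G2/M genes, so the order of these classes depends on whether a level is taken per UMI or per cell. Levels of Pcna, Tyms, Ccnb1 and Ccnd3 are uncertain because the annotation holds processed pseudogenes of them, and 12 of the 44 genes, the D cyclins, Ube2c and Cdc20 among them, overlap another gene while the use of strand in counting is not given in the sources used here.

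**Figure D1:**
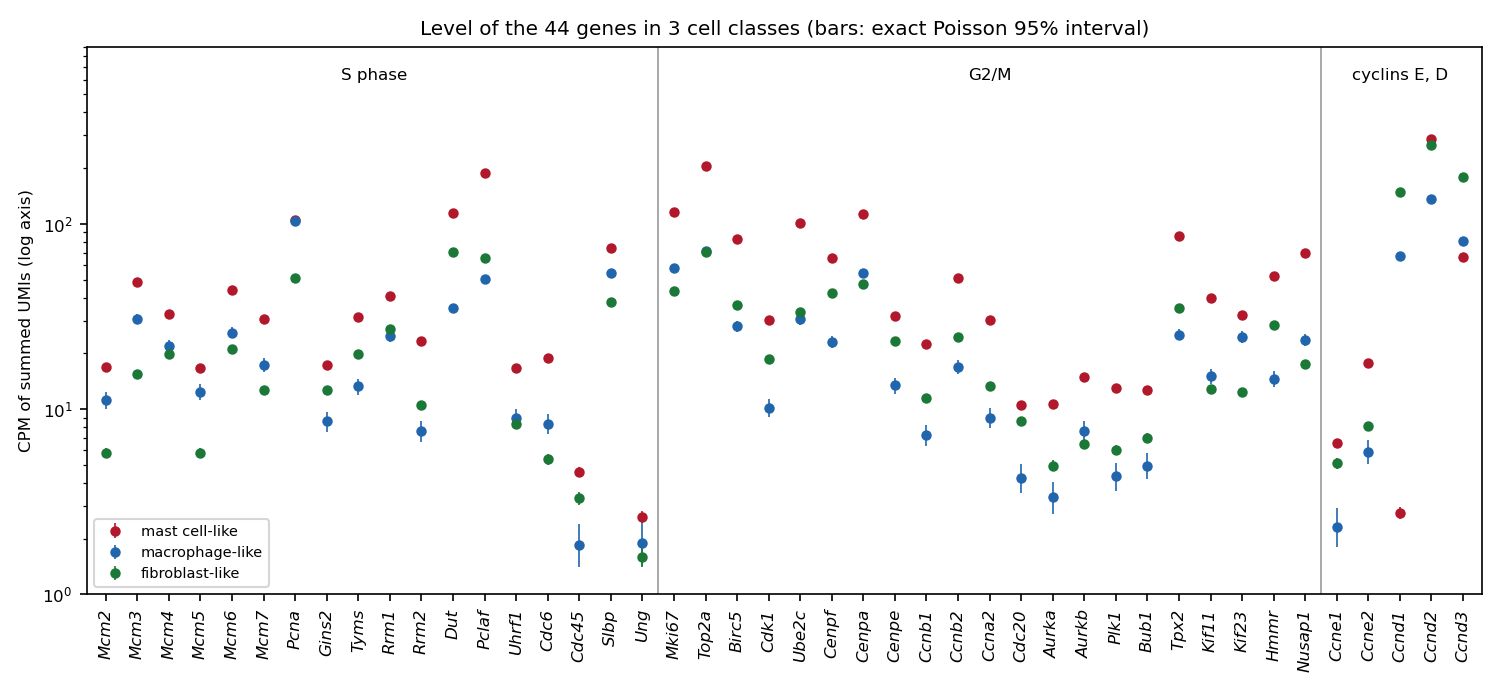
Level of each of the 44 genes in CPM of summed UMIs (log axis) in mast-like, macrophage-like and fibroblast-like cells of the library; vertical bars are exact Poisson 95% intervals, which cover counting error only. The 39 S phase and G2/M genes are highest in mast-like cells, with Pcna at 104 CPM in both mast-like and macrophage-like cells, while Ccnd1 runs the other way from 2.76 to 149 CPM.

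Among genes at 10 CPM or more in either class, 9.51% stood at least 2-fold higher in mast-like than in macrophage-like cells, against 6 of 16 S phase genes and 18 of 21 G2/M genes. Ung and Cdc45 were under 10 CPM. In the opposite direction the background was 17.6%, and no S phase or G2/M gene was that much higher in macrophage-like cells. Against fibroblast-like cells, 16.1% of genes stood at least 2-fold higher in mast-like cells, as did 10 of 16 S phase and 14 of 21 G2/M genes. The reverse held for 22.7% of genes and for none of the 37 tested members of both lists. Median ratios to mast-like cells were 0.578 for S phase and 0.339 for G2/M genes in macrophage-like cells, where the median gene stood at 0.882. In fibroblast-like cells they were 0.494 and 0.440, beside 0.973 for the median gene.

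Among the S phase genes, the 6 subunits of the Mcm helicase, which unwinds DNA at replication forks, kept 1 order by CPM over all cells of a class. Mast-like cells came first, macrophage-like second and fibroblast-like last. Mcm3 stood at 48.4, 30.6 and 15.4 CPM, Mcm6 at 43.7, 25.9 and 21.2 CPM, and Mcm2 at 16.8, 11.2 and 5.77 CPM in that order. Mcm4 differed least between the lower classes, at 22.0 CPM in the macrophage-like and 19.7 CPM in the fibroblast-like class. The loading factor Cdc6 had the same order, at 18.9, 8.35 and 5.35 CPM. Pcna, the sliding clamp of the DNA polymerases, did not separate mast-like from macrophage-like cells: their intervals, 103 to 106 and 99.97 to 107 CPM, overlapped, and fibroblast-like cells stood at 50.9 CPM. Slbp, which binds histone mRNA, was also close, at 74.0 and 54.6 CPM, with 37.7 CPM in fibroblast-like cells. Mcm7 stood at 30.6, 17.2 and 12.7 CPM in mast-like, macrophage-like and fibroblast-like cells, and Uhrf1, which helps to copy DNA methylation, at 16.7, 8.94 and 8.36 CPM. Gins2 and Cdc45, which join the Mcm ring in the active helicase, had macrophage-like cells last instead, at 17.4, 8.58 and 12.7 CPM and at 4.6, 1.85 and 3.30 CPM. Ung, at 2.63, 1.89 and 1.59 CPM, was the lowest of the 44 genes in mast-like and fibroblast-like cells, and Cdc45 was the lowest in macrophage-like cells.

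Enzymes of nucleotide supply had another order, with macrophage-like cells last. Dut, which removes dUTP, stood at 114 CPM in mast-like, 35.0 CPM in the macrophage-like and 70.8 CPM in the fibroblast-like class. Rrm2, a subunit of ribonucleotide reductase, stood at 23.4, 7.58 and 10.5 CPM, and thymidylate synthase (Tyms) at 31.3, 13.2 and 19.7 CPM. Rrm1, the larger subunit of that reductase, stood at 40.9, 24.7 and 27.2 CPM. Pclaf, a clamp-binding protein, was the most abundant S phase gene in mast-like cells at 189 CPM and stood at 50.1 and 65.7 CPM in the others. Dut, at 2.03-fold, was the only S phase gene at least 2-fold higher in fibroblast-like than in macrophage-like cells, of 14 tested, where 18.8% of all genes were. That count depends on the cells kept: it was 4 of 13 with called doublets kept and 4 of 13 with each class's tag alone, and for G2/M genes it went from 0 of 16 to 10 of 16 and 9 of 17. The shares of all genes under those settings are not given here, so the counts there are not read against the 18.8%. In the reverse direction, also 18.8% of genes, 2 of 14 S phase genes passed: Pcna and Mcm5, the latter at 12.4 and 5.79 CPM.

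Of the G2/M genes, Top2a, the topoisomerase that untangles sister DNA, stood at 204 CPM in mast-like cells and at 71.5 and 70.5 CPM in macrophage-like and fibroblast-like cells, whose intervals overlapped. Mki67, the proliferation antigen that coats mitotic chromosomes, stood at 116, 58.1 and 43.3 CPM. Ube2c, which hands ubiquitin to the anaphase-promoting complex, stood at 101, 30.5 and 33.4 CPM. The mitotic kinase partner Ccnb1 and the kinase Cdk1 were both lowest in macrophage-like cells, with Ccnb1 at 22.5, 7.22 and 11.4 CPM and Cdk1 at 30.4, 10.2 and 18.6 CPM.

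The other cyclins had the order of Ccnb1: Ccnb2 stood at 51.0, 16.9 and 24.4 CPM in mast-like, macrophage-like and fibroblast-like cells, and Ccna2 at 30.4, 8.98 and 13.4 CPM. So did most of the kinases that run mitosis. Plk1 stood at 12.9, 4.34 and 6.01 CPM, Aurka, which acts at the spindle poles, at 10.7, 3.35 and 4.94 CPM, and the checkpoint kinase Bub1 at 12.7, 4.93 and 7.02 CPM. Aurkb, the kinase of the chromosomal passenger complex, differed from them, with 14.8, 7.62 and 6.45 CPM. Its partner Birc5 stood at 82.6, 28 and 36.2 CPM. Of the centromere genes, Cenpf stood at 65.6, 23.1 and 42.3 CPM and the motor Cenpe at 31.9, 13.4 and 23.3 CPM, with macrophage-like cells last, whereas Cenpa stood at 113, 54.2 and 47.3 CPM. Of the spindle genes, Tpx2 stood at 86.4, 25.2 and 35.1 CPM and Hmmr at 52.1, 14.6 and 28.5 CPM, again with macrophage-like cells last. The kinesins Kif11 and Kif23 had fibroblast-like cells last, at 39.8, 15 and 12.8 CPM and at 32.4, 24.4 and 12.4 CPM.

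Fibroblast-like cells came nearest to mast-like cells for Cdc20, the activator of the anaphase-promoting complex, at 8.66 against 10.6 CPM. They were furthest below for the spindle protein Nusap1, at 17.4 against 69.9 CPM. By CPM over all cells of a class, macrophage-like cells were lowest for 14 of 21 G2/M genes but for 7 of 18 S phase genes. With only cells of their class's own tag, Cdc20 alone was not highest in mast-like cells, at 11.6 CPM in the fibroblast-like and 10.9 CPM in the mast-like class. In those cells Top2a, Cenpa, Aurkb and Kif11 had macrophage-like cells last instead of fibroblast-like cells. Cenpa stood at 48.9 and 51.1 CPM and Kif11 at 10.8 and 14.0 CPM in macrophage-like and fibroblast-like cells. Mki67, Kif23 and Nusap1 kept fibroblast-like cells last.

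Set against the mast cell marker yardstick, all 18 S phase and all 21 G2/M genes of fibroblast-like cells lay above the range. The median gene, at 0.973, also lay above it, as did all 42 replication and 59 mitosis genes of the further lists. Lying above is thus not particular to the members, and the share of all genes above is not given here. In macrophage-like cells, where the median gene stood at 0.882, 15 of 18 S phase genes lay above the range and Rrm2, Dut and Pclaf below it. Their G2/M genes lay lower: 6 were above (Mki67, Cenpa, Cenpe, Cdc20, Aurkb and Kif23), 9 within and 6 below. Kif23, a kinesin of the division midzone, was highest with a ratio of 0.755. In macrophage-like cells with their own tag alone, 15 of 18 S phase and 18 of 21 G2/M genes lay above the range, and when called doublets were kept, or at a clustering resolution of 1, all 39 did. The level of most G2/M genes in the full macrophage-like class therefore cannot be told apart from counted mast cell RNA, while in the subset of 1 tag most exceeded it.

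**Figure D2:**
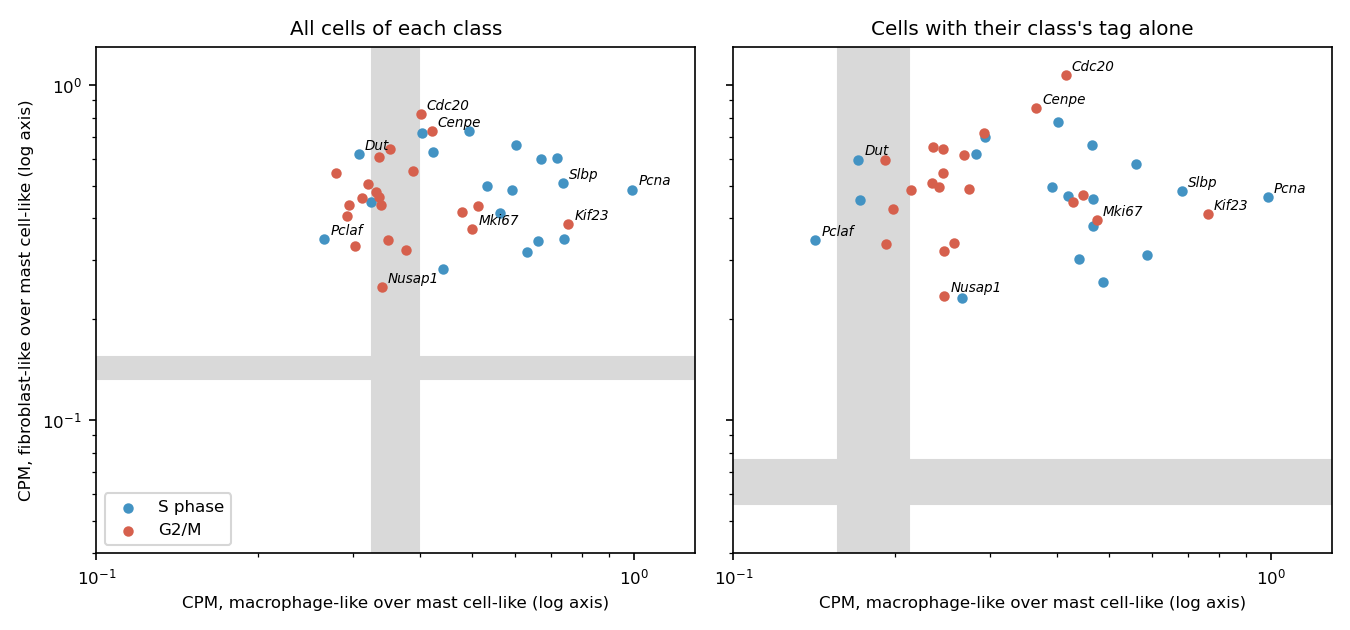
Each point is 1 of the 39 S phase or G2/M genes, with its CPM in macrophage-like cells (x) and in fibroblast-like cells (y) relative to mast-like cells, both log axes; grey bands span the same ratios of the 7 mast cell markers. On the left, for all cells, G2/M points crowd around the vertical band (0.326 to 0.398) and all points lie above the horizontal band (0.133 to 0.154); on the right, for cells with their class's tag alone, 33 of the 39 points lie to the right of the vertical band.

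To ask which cells were in which phase, each cell was thinned at random to 5500 UMIs, and a cell was placed in S where at least 6 of the 18 S phase genes had a UMI and in G2/M where at least 7 of the 21 G2/M genes had. Thinning left out 1059 mast-like, 561 macrophage-like and 136 fibroblast-like cells with fewer UMIs. Mast-like cells were in S or G2/M most often, 18.8% of 17876 cells (95% Clopper-Pearson interval 18.2 to 19.4). The share was 8.67% of 5109 fibroblast-like cells (7.91 to 9.48) and 5.84% of 2208 macrophage-like cells (4.90 to 6.90). These intervals do not overlap, but they cover counting error only. A class cut from such counts is a range and not a type: 599 mast-like cells had 5 S phase genes, just under the limit, and 511 had 6.

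Among the mast-like cells, 6.17% met the S rule alone, 4.95% both rules and 7.70% the G2/M rule alone. In fibroblast-like cells these shares were 2.04%, 1.47% and 5.17%, and in macrophage-like cells 2.31%, 1.4% and 2.13%. The S phase share did not separate the last pair, at 3.5% (3.02 to 4.05) in fibroblast-like and 3.71% (2.96 to 4.59) in macrophage-like cells. The G2/M share did, at 6.64% (5.97 to 7.35) against 3.53% (2.80 to 4.39). Of the cycling cells in each class, those in G2/M alone made up 59.6% in fibroblast-like cells (264 of 443, interval 54.9 to 64.2) and 40.9% in mast-like cells (1376 of 3362, 39.3 to 42.6). In macrophage-like cells they made up 36.4% (47 of 129, 28.1 to 45.4). The fibroblast-like share of G2/M alone was above the mast-like share in all 9 settings run on thinned cells, but without thinning the order turned, with 137 of 1925 cycling fibroblast-like and 783 of 5664 cycling mast-like cells in G2/M alone.

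**Figure D3:**
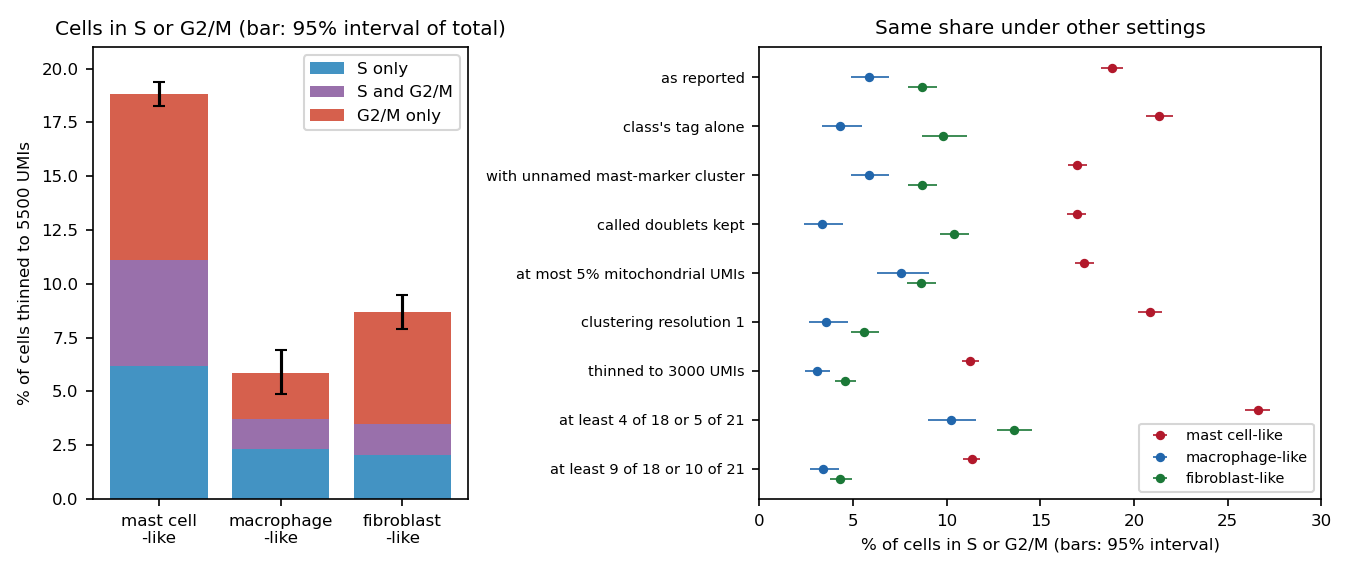
Left, percent of cells thinned to 5500 UMIs that met the S rule, both rules or the G2/M rule, with the 95% Clopper-Pearson interval of the total: 18.8% of mast-like, 5.84% of macrophage-like and 8.67% of fibroblast-like cells. Right, the same total (points, with 95% intervals) under 9 settings; mast-like cells are highest in each, and the macrophage-like and fibroblast-like intervals overlap at a limit of 5% mitochondrial UMIs and under the rule of at least 9 of 18 or 10 of 21 genes.

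Without thinning, 36.7% of fibroblast-like, 29.9% of mast-like and 10.4% of macrophage-like cells met a rule, so the order of the first pair turned with depth. Median depth was 31769 UMIs in fibroblast-like and 12329 UMIs in mast-like cells. With at least 9 S phase or 10 G2/M genes and no thinning, the shares were 17.3%, 22.0% and 6.14%. Within mast-like cells the cycling cells were also deeper, with a median of 21051.5 UMIs against 11563.5 UMIs in the rest. They held less mast cell marker RNA, at 50999 against 66290 CPM summed over the 7 markers.

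The macrophage-like cells in S or G2/M differed from the other macrophage-like cells in other values too. Their 7 mast cell markers summed to 23163 CPM against 17827 CPM, Csf1r, the receptor of the macrophage growth factor, stood at 278 against 548 CPM, and 46.5% carried more than 1 tag against 31.0%. Their median doublet score was 0.484 against 0.268. With the Macrophages tag alone, 63 of 1463 cells (4.31%, interval 3.32 to 5.48) were in S or G2/M, and their marker sum was 10822.5 against 8876 CPM and Csf1r 372 against 653 CPM. The part of mixed droplets in the macrophage-like share was not tested. In fibroblast-like cells the cycling cells and the others had 8971 and 8477 CPM of mast cell markers, and Col1a1, a collagen chain, was lower in the cycling cells, at 1685 against 3109 CPM. More than 1 tag was carried by 34.3% of the cycling and 23.0% of the other fibroblast-like cells, with median doublet scores of 0.426 and 0.355, and the part of mixed droplets was not tested here either.

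The phase in which a gene was high was taken from its mean in thinned cells whose phase was set by the other genes, with the gene itself left out of both lists. The Mcm subunits, Cdc6, Uhrf1 and Ung were highest in mast-like cells of S alone. Mcm6 averaged 0.142 UMIs per 5500 in cells of neither phase, 0.815 in S alone, 0.541 in both and 0.137 in G2/M alone, back at its level in cells of neither phase. Ung, which removes uracil from DNA, had the lowest ratio of G2/M alone to S alone in its list, 0.0258, from 0.00488, 0.0843, 0.0114 and 0.0022. The other 9 S phase genes, which include the nucleotide enzymes, Pcna and Pclaf, peaked in cells that met both rules. For Mcm7, Uhrf1, Pcna, Gins2, Cdc45 and Slbp the Poisson intervals of S alone and of both rules overlapped, so their placing is not settled. Pclaf went from 0.146 to 2.09, 5.69 and 2.86 UMIs and so stayed high in G2/M alone, and Rrm2 from 0.0161 to 0.336, 0.747 and 0.165.

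The G2/M genes also differed in the state of their highest mean. Highest in cells that met both rules were 9 of 21, including Top2a (0.134, 1.54, 6.06 and 3.47 UMIs per 5500), Mki67 (0.107, 0.597, 2.67 and 2.43) and Cdk1 (0.0215, 0.268, 0.821 and 0.585). Among these 9, Aurka and Kif23 had overlapping intervals in cells of both rules and of G2/M alone, so their placing is not settled. The other 12 were highest in G2/M alone. Among them Cenpf, a kinetochore protein, went from 0.0451 through 0.0651 and 1.18 to 2.05, and Ube2c from 0.0996 through 0.117 and 1.80 to 3.06. Plk1, the polo kinase, had the largest ratio of G2/M alone to S alone, 33.5, from 0.00523, 0.0117, 0.303 and 0.393. Cenpa, the centromeric histone, was lower in S alone (0.161) than in cells of neither phase (0.264) and reached 3.34 in G2/M alone. The genes with the 4 largest ratios were Plk1, Cenpf, Ube2c and Cdc20.

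Fibroblast-like cells gave nearly the same order of phases: the phase of the highest mean was the same in both classes for 16 of 18 S phase genes, all but Mcm4 and Tyms, and for 18 of 21 G2/M genes, all but Ccna2, Aurka and Kif23. These counts take the highest mean alone, whether or not intervals overlapped. Outside the lists, replication-dependent and other histone genes, which were in neither rule, were highest in mast-like cells that met both rules for 59 of 67. Their sum was 965 CPM in cells of neither phase, 2478 in S alone, 10394.5 in both and 3455 in G2/M alone. In fibroblast-like cells the sums were 298, 1538, 4274 and 1414 CPM, and in macrophage-like cells 413, 1512, 7179 and 2851 CPM. RNA shared between droplets can add to the level in every state, and its part was not tested.

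**Figure D4:**
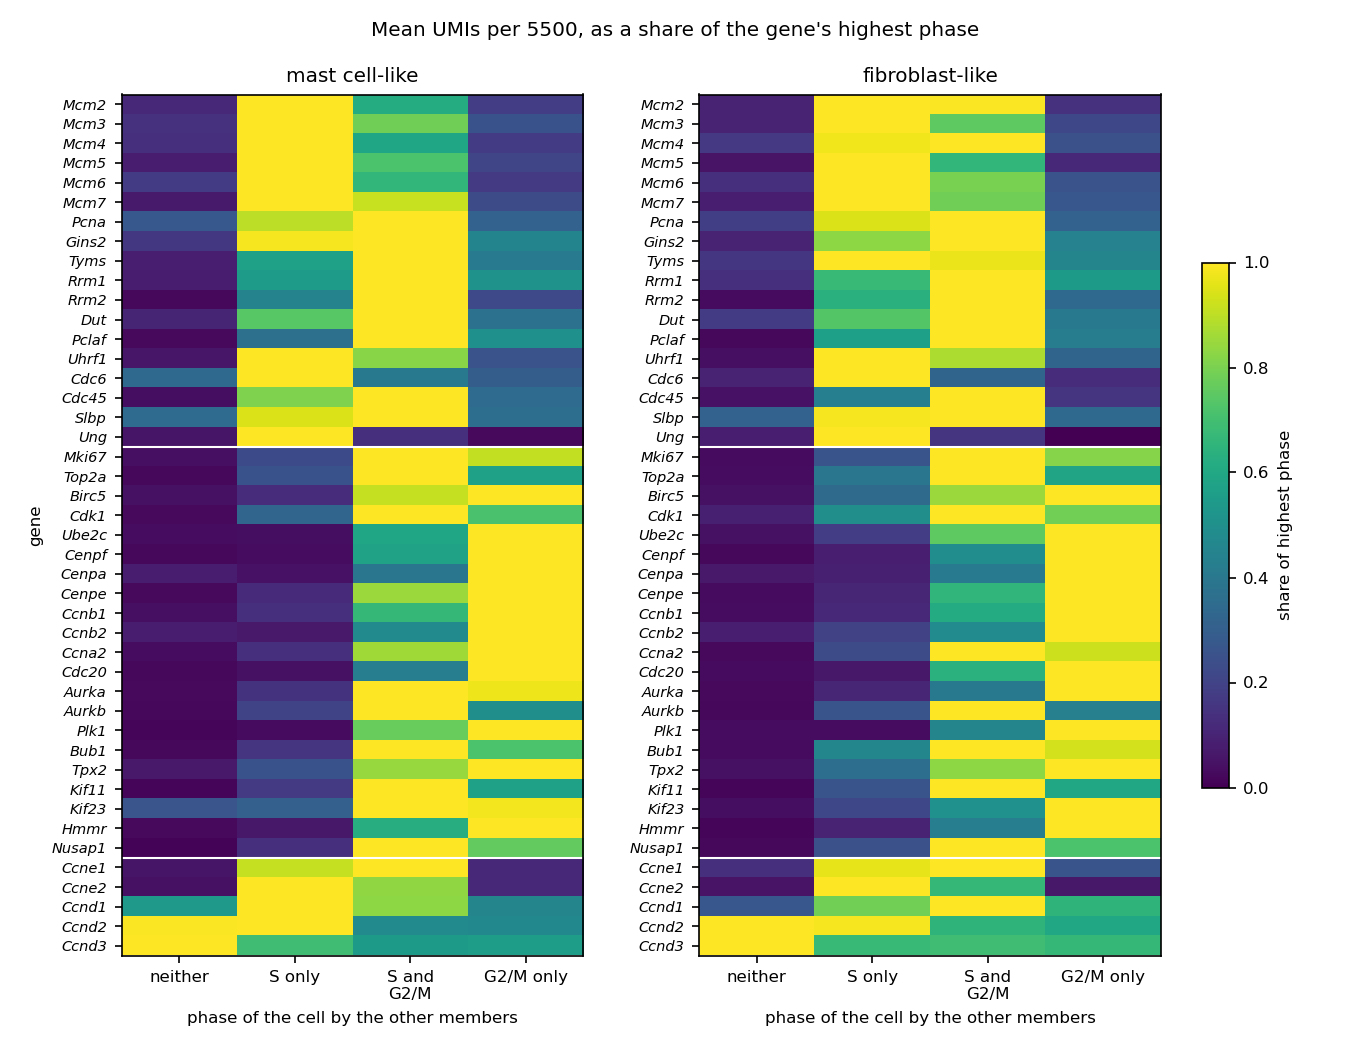
Mean UMIs per 5500 of each of the 44 genes in mast-like (left) and fibroblast-like cells (right) by the phase that the other genes gave the cell, as a share of the gene's highest phase (colour, 0 to 1). In both classes Mcm genes are brightest in S alone (except Mcm4 in fibroblast-like cells, brightest where both rules were met), Ube2c, Cenpf and Cdc20 in G2/M alone, and Ccnd2 and Ccnd3 are high in cells of neither phase.

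Cyclins E1 and E2, which start S phase with Cdk2, followed the S phase genes although they were in neither rule. Ccne2 stood at 17.7 CPM in mast-like, 5.86 CPM in the macrophage-like and 8.13 CPM in the fibroblast-like class, and Ccne1 at 6.57, 2.32 and 5.10 CPM. In macrophage-like cells both ratios lay within the mast cell marker range. By phase in mast-like cells, Ccne2 went from 0.0210 to 0.460, 0.384 and 0.0509 UMIs per 5500, so it was low again in G2/M alone. Ccne1 went from 0.00813 to 0.129, 0.141 and 0.0160.

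The 3 D-type cyclins differed between classes by kind. Ccnd1 (chromosome 7, 144929931 to 144939925, minus strand) stood at 2.76 CPM in mast-like, 67.2 CPM in the macrophage-like and 149 CPM in the fibroblast-like class. Ccnd2 (chromosome 6, 127125162 to 127152193, minus strand) stood at 286, 136 and 268 CPM, and Ccnd3 (chromosome 17, 47505051 to 47599691, plus strand) at 66.0, 81.0 and 179 CPM. By CPM, mast-like cells were thus lowest for Ccnd1 and Ccnd3 and highest for Ccnd2. By UMIs per cell, fibroblast-like cells were highest for all 5 cyclins of the D and E types. In mast-like, macrophage-like and fibroblast-like cells, Ccnd2 averaged 4.11, 1.48 and 8.82 UMIs per cell, and Ccnd3 0.951, 0.883 and 5.91. Of the D cyclin UMIs, Ccnd2 made up 80.6% and Ccnd1 0.778% in mast-like cells. The shares were 47.9% and 23.6% in macrophage-like and 44.9% and 25% in fibroblast-like cells. This is a comparison of molecules captured at the 3′ end, which carries no length term. The macrophage-like mix depends on the cells kept. With the Macrophages tag alone, Ccnd1, Ccnd2 and Ccnd3 stood at 87.02, 88.99 and 79.03 CPM. At a clustering resolution of 1 the macrophage-like cluster had 96.8, 66.3 and 78.3 CPM, so Ccnd1 was highest there. In the full class Ccnd2 stood at 0.476 of its mast-like level, against 0.326 to 0.398 for the mast cell markers. The part of counted mast cell RNA in its level was not tested.

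The Ccnd1 level of mast-like cells was 0.0186 of the fibroblast-like level, inside the range of the 6 fibroblast markers (0.0134 to 0.0256), so it cannot be told apart from counted fibroblast RNA. In macrophage-like cells the ratio was 0.452, above their range of 0.0187 to 0.0393. With each class's tag alone, Ccnd1 stood at 2.45, 87.0 and 189 CPM. Of the 4 cyclins tested, Ccnd2 and Ccne2 passed 2-fold higher in mast-like than in macrophage-like cells, and Ccnd1 passed in the other direction, where 9.51% and 17.6% of all genes did. Against fibroblast-like cells 1 of 4 was higher in mast-like cells and 2 were lower, beside 16.1% and 22.7% of all genes.

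Across the phases the D cyclins had different profiles. In fibroblast-like cells Ccnd1 averaged 0.570 UMIs per 5500 in cells of neither phase (Poisson interval 0.548 to 0.592), and was higher at 1.64 in S alone (1.41 to 1.91), 2.09 in both and 1.36 in G2/M alone (1.22 to 1.51). In mast-like cells it stayed between 0.0124 and 0.0272 in every phase. Ccnd2 was lower in G2/M: in mast-like cells it averaged 1.64 in neither phase, 1.65 in S alone, 0.782 in both and 0.767 in G2/M alone. In fibroblast-like cells the values were 1.49, 1.47, 0.973 and 0.890. Ccnd3 was highest in cells of neither phase, at 0.425 in mast-like and 0.999 in fibroblast-like cells, and lower in G2/M alone, at 0.236 and 0.667. The fibroblast-type clusters led by Crabp1 and by Fmo2, given below, differed in the same directions. Their G2/M sums were 1037 and 341 CPM, with Ccnd1 at 346 and 87.8 CPM and Ccnd3 at 105 and 209 CPM. The part of this mix of clusters in the fibroblast-like profiles was not tested. Macrophage-like cells had other profiles: Ccnd2 averaged 0.627 in neither phase, 1.16 in S alone (0.881 to 1.49) and 0.511 in G2/M alone (0.327 to 0.760), so only S alone stood apart from neither phase. Their Ccnd1 averaged 0.170 in G2/M alone (8 UMIs in 47 cells, 0.0735 to 0.335) and 0.401 in neither phase (0.374 to 0.429). That direction was the opposite of the one in fibroblast-like cells. The intervals of Ccnd3 in macrophage-like cells overlapped in all 4 states. In their G2/M alone cells Csf1r was also lower than in neither phase, at 344 against 548 CPM. Mast cell markers summed to 23215 against 17827 CPM in the same cells. More than 1 tag was carried by 52.9% of macrophage-like cells in S alone and 31.0% in neither phase. The part of mixed droplets in these profiles was not tested.

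**Figure D5:**
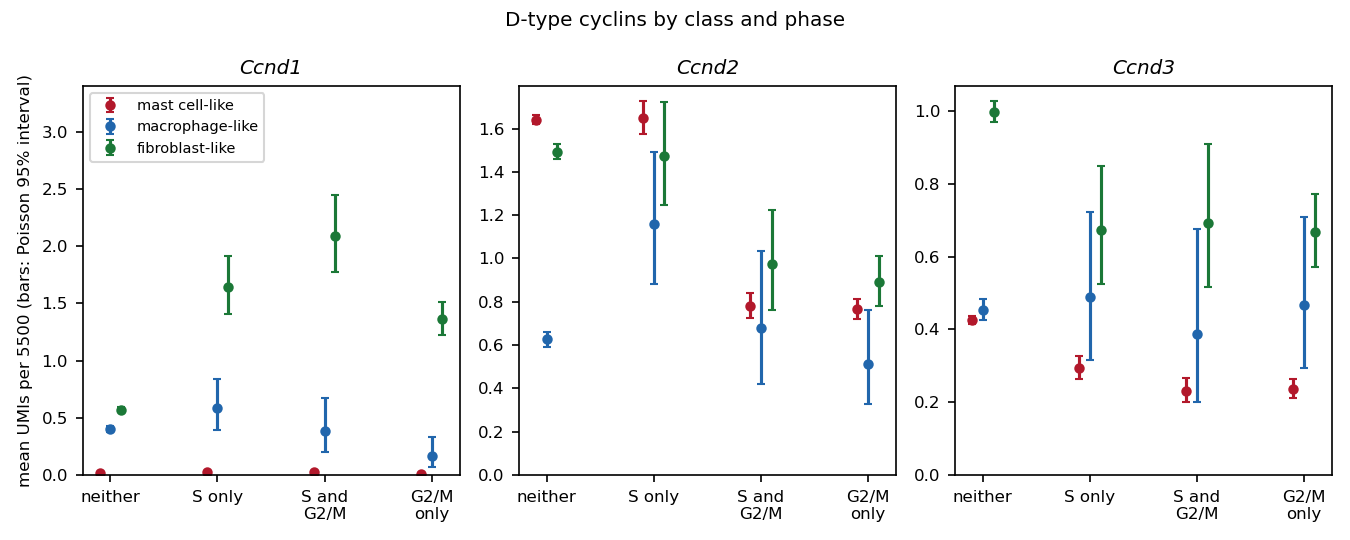
Mean UMIs per 5500 of Ccnd1, Ccnd2 and Ccnd3 in thinned cells of each class by phase; bars are Poisson 95% intervals, which cover counting error only. Ccnd1 is near 0 in mast-like cells and lies between 0.570 and 2.09 in fibroblast-like cells, while Ccnd2 in mast-like cells is at 1.64 in neither phase and 0.767 in G2/M alone.

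Of the other genes of the pathway, 36 of 42 replication genes and 54 of 59 mitosis genes were highest in mast-like cells by CPM. By UMIs per cell these counts were 10 and 20, and fibroblast-like cells were highest for 32 and 38. The share of all genes highest in mast-like cells is not given here, so these counts are not read against a background. Of 33 further replication genes tested, 15 were at least 2-fold higher in mast-like than in macrophage-like cells, beside 9.51% of all genes. Against fibroblast-like cells 11 of 34 were, beside 16.1% of all genes. None was that much lower in mast-like cells, where 17.6% and 22.7% of all genes were. Rfc2, a subunit of the clamp loader, stood at 204, 91.3 and 46.4 CPM in mast-like, macrophage-like and fibroblast-like cells, and the histone chaperones Asf1b and Chaf1b at 26.9, 9.17 and 5.51 CPM and at 35.0, 16.9 and 8.65 CPM. Of 45 further mitosis genes, 36 were at least 2-fold higher in mast-like than in macrophage-like cells and 23 than in fibroblast-like cells. The shares of all genes were again 9.51% and 16.1%. The centromere gene Cenpw stood at 75.8, 20.8 and 31.3 CPM, Cdca8, of the Aurora B complex, at 72.5, 21.1 and 21.6 CPM, and Sgo1, which guards sister cohesion, at 24.7, 6.89 and 9.14 CPM. By phase in mast-like cells Rfc2 was not raised in S alone (1.03 UMIs per 5500, against 1.21 in cells of neither phase), while Asf1b averaged 0.334 there against 0.0247.

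Of the E2F and pocket protein genes, 1 of 14 was 2-fold higher in mast-like than in macrophage-like cells and 2 of 14 the reverse, near the 9.51% and 17.6% of all genes. E2f8, a repressor of E2F targets, stood at 35.1, 14.5 and 8.06 CPM, and E2f5 at 1.74, 15.7 and 19.9 CPM. Rb1, the retinoblastoma gene, stood at 172, 140 and 42.1 CPM.

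Of 12 kinase and inhibitor genes tested, 1 was at least 2-fold higher in mast-like than in macrophage-like cells and 1 the reverse, where 9.51% and 17.6% of all genes were. Of 13 tested against fibroblast-like cells 3 were higher and 3 lower, beside 16.1% and 22.7% of all genes, so these counts are near the background and the levels below are a description of single genes. Cdkn1a (p21) was the most counted in all 3, at 336, 427 and 187 CPM in mast-like, macrophage-like and fibroblast-like cells. Cdkn2b (p15) and Cdkn1c (p57) were highest in fibroblast-like cells, at 2.22, 1.89 and 32.5 CPM and at 0.778, 10.2 and 29.2 CPM. Cdkn2a, the locus of p16 and p19Arf, stood at 34.0, 13.3 and 74.1 CPM. Cdkn1b (p27) stood at 52.0, 36.4 and 57.9 CPM, Cdkn2c (p18) at 15.1, 13.4 and 19.0 CPM, and Cdkn2d (p19) at 57.4, 30.8 and 28.2 CPM. In mast-like cells Cdkn1b was lower in S alone (0.148 UMIs per 5500, interval 0.126 to 0.172) than in cells of neither phase (0.356, 0.347 to 0.366), whereas Cdkn2d was higher in G2/M alone (0.599) than in neither phase (0.266).

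Cycling cells were gathered in 1 of the 4 mast-like clusters, where 59.0% of 4783 thinned cells met a rule, against 3.05% to 7.23% in the others. The listed genes were left out of the clustering, but other cell cycle genes were not, so this concentration is a description. At a clustering resolution of 1, the fibroblast-type cells split into a cluster led by Fmo2 and Chl1 (3759 cells) and one led by Crabp1, Chrm3 and Ltbp1 (962 cells), which passed 5 of 6 fibroblast markers and stayed unnamed because its 10 leading genes held the smooth muscle marker Acta2 and no fibroblast marker. In S or G2/M were 22.8% (20.1 to 25.5) of the Crabp1 cluster and 5.60% (4.88 to 6.38) of the Fmo2 cluster. At the same resolution 20.8% (20.2 to 21.5) of mast-like cells were, an interval that overlaps that of the Crabp1 cluster. The S phase sums of the Crabp1 and Fmo2 clusters were 664 and 310 CPM, their G2/M sums 1037 and 341 CPM, and Ccnd1 stood at 346 and 87.8 CPM. Ccnd3 had the opposite order, at 105 and 209 CPM. The macrophage-like cluster then held 1759 cells, with 3.56% of 1319 thinned cells in S or G2/M. A further cluster of 989 cells passed 7 of 7 mast cell and 7 of 8 macrophage markers and stayed unnamed. Cma1 stood at 13511 CPM there and at 1669 CPM in the macrophage-like cluster. S phase sums were 521 and 350 CPM, and G2/M sums 553 and 342 CPM, in the same order. Another unnamed cluster, led by Cfd and Adipoq (685 cells), passed all mast cell and all fibroblast markers.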

How the data were processed

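Per the labels' protocols, viable cells were labelled with MULTI-seq tags, pooled, and run as 1 library with the 10x Genomics 3′ kit v3.1. The deposited matrix holds whole-number counts of UMIs per gene and cell, as the authors' pipeline wrote them. The submitters' processing notes name Cell Ranger 7.0.0, STAR, R 4.1.3, Seurat 4.1.1 and the genome build mm10; their filters and strand setting are not given in the sources used here. The library of tags alone was not used here, and 3 tags were read from the matrix.

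Cells with at least 500 genes, 1000 UMIs and at most 10% mitochondrial UMIs were kept (33964). Scrublet called 9.30% of barcodes as doublets (score above 0.564), and the 3209 among those cells were removed. The expected rate set for this number of barcodes was 27.9%, and 37.1% of simulated doublets scored above the threshold. Doublets can therefore remain among the kept cells. Clustering used scanpy 1.11.5 on 2000 variable genes, 30 components and a Leiden resolution of 0.5, with 178 listed cell cycle genes, histone, ribosomal and mitochondrial genes left out. To be named, a cluster needed most markers of 1 type at 50 CPM or more. Those markers also had to reach 4 times their level in the cluster where they were lowest, very small clusters aside. A named cluster held at least 1% of cells, and its 10 leading genes held no more markers of another type than of its own. A cluster could thus pass the markers of more than 1 type. These thresholds and the tag calls (a tag above a multiple of 1.4 to 2 of its background) were chosen after the data were seen. CPM are summed UMIs of a class per 1000000 gene UMIs, with exact Poisson 95% intervals. Shares are of cells thinned to 5500 UMIs, with Clopper-Pearson 95% intervals. Both cover counting error only.

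Cells of 1 library are not replicates, so no p-value was computed. The members and gene lists were chosen with earlier results of these data known. From the further pathway lists, the text names the 3 genes of each list with the largest ratio between classes at 10 CPM or more, and every kinase inhibitor at that level. Of 60 listed mitosis genes 59 were measured. The scripts were tested on simulated data. The alternatives varied doublets, mitochondrial limit, clustering resolution, tag, thinning depth and the S and G2/M rules.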

Additional observations from a re-analysis of the deposited data

How the results depend on the processing

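No paired analysis was possible because the labels give 1 gene expression library and no replicate numbers. Of the 3 named classes, mast-like cells had the highest share in S or G2/M in all 9 settings run on thinned cells. Without thinning fibroblast-like cells were higher, at 36.7% against 29.9%. At a clustering resolution of 1 the Crabp1 cluster was unnamed and so outside the fibroblast-like class. Its share, given above, was not below the mast-like one at that resolution. The macrophage-like and fibroblast-like intervals overlapped at a limit of 5% mitochondrial UMIs (7.59% and 8.65%) and with at least 9 of 18 or 10 of 21 genes (3.4% and 4.33%).

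The S phase and G2/M shares of mast-like cells were 9.95% and 11.3% with called doublets kept, 10.3% and 11.6% at the 5% mitochondrial limit, 12.2% and 14.1% at a clustering resolution of 1, and 13.4% and 14.0% with the class's tag alone. They were 4.68% and 8.02% when thinned to 3000 UMIs, 20.3% and 16.2% with at least 4 of 18 or 5 of 21 genes, 3.97% and 8.37% with at least 9 of 18 or 10 of 21, and 10.0% and 11.3% with the unnamed mast cell marker cluster, an alternative added after the data were seen. In macrophage-like cells they were 2.10% and 2.10% with doublets kept, 4.76% and 4.90% at the 5% limit, 2.35% and 2.05% at resolution 1, 2.39% and 2.80% with the tag alone, 1.13% and 2.26% at 3000 UMIs, 8.15% and 4.48% with the looser rule, and 1.22% and 2.26% with the stricter rule. In fibroblast-like cells they were 4.21% and 7.92% with doublets kept, 2.08% and 4.35% at resolution 1, 1.02% and 3.78% at 3000 UMIs, 8.53% and 9.12% with the looser rule and 0.959% and 3.52% with the stricter one; the G2/M share was 7.73% with the tag alone.

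The macrophage-like over mast-like ratios of the S phase and G2/M sums were 0.442 and 0.318 with doublets kept, 0.611 and 0.477 at the 5% limit, 0.402 and 0.268 at resolution 1, 0.414 and 0.301 with the tag alone, 0.402 and 0.286 by UMIs per cell, and 0.557 and 0.405 with the unnamed cluster. The fibroblast-like ratios were 0.549 and 0.521, 0.494 and 0.444, 0.357 and 0.267, 0.458 and 0.452, 1.09 and 0.968, and 0.501 and 0.453 under the same settings, so the S phase order turned by UMIs per cell.

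Counts of genes at least 2-fold apart moved as follows. With doublets kept, 10 S phase genes were higher in mast-like than in macrophage-like cells, 6 S phase, 8 G2/M genes and 0 cyclins than in fibroblast-like cells, 4 S phase and 10 G2/M genes were higher in fibroblast-like than in macrophage-like cells, and 1 S phase gene the reverse. With the tag alone these counts were 12 S phase genes over macrophage-like cells, 4 S phase and 9 G2/M genes for fibroblast-like over macrophage-like cells, and 1 S phase gene the reverse. At a minimum of 50 CPM, 2 S phase genes, 9 G2/M genes and 1 cyclin were higher in mast-like than in macrophage-like cells, 2 S phase genes, 8 G2/M genes and 0 cyclins than in fibroblast-like cells, and 1 S phase gene in macrophage-like than in fibroblast-like cells, fewer because fewer genes were tested. The cause of the other shifts was not tested. The shares of all genes under these settings are not given here, so these counts are not read against a background. Depth limits the shares: a cell of 5500 UMIs can miss genes that it expresses.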

Other observations

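Of the 3283 unnamed cells that passed all mast cell markers and were led by haemoglobin genes, 2881 were thinned and 5.66% of these (interval 4.84 to 6.57) were in S or G2/M, beside 59.0% in 1 named mast-like cluster and 3.05% to 7.23% in the other 3. Of the 163 unnamed cells in S or G2/M, 46.0% met the S rule alone and 11% both rules. Their S phase sum was 432 CPM and their G2/M sum 390 CPM, with Mki67 at 32.5 CPM, Top2a at 50.4 CPM and Pcna at 79.6 CPM. Ccnd2 stood at 257 CPM and Ccnd1 at 2.85 CPM, and histone genes summed to 1152 CPM.

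In cells of neither phase Pcna was highest in macrophage-like cells, at 0.529 UMIs per 5500 (0.498 to 0.561), against 0.410 (0.400 to 0.421) in mast-like and 0.223 (0.209 to 0.236) in fibroblast-like cells. In the same cells Kif23 averaged 0.0208 in the fibroblast-like, 0.0903 in the macrophage-like and 0.115 in the mast-like class, and Cdc6 averaged 0.0210, 0.0254 and 0.0864.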
